A study of Mus musculus with 28 samples.

Results

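AP-1 is a family of transcription factors that bind DNA as pairs joined by a leucine zipper. The Fos proteins (Fosl2, Fosl1, Fos and Fosb) pair with a Jun protein (Jun, Junb or Jund), whereas Jun proteins can also pair with each other, and the pairs bind the TGACTCA element and the related cyclic AMP response element TGACGTCA. Several of these genes are immediate early genes, which are transcribed within minutes of growth factor, cytokine, stress or mechanical signals through MAP kinases and serum response factor, while Fosl1 and Fosl2 usually follow later and Jund is usually present at all times. AP-1 is known in connective tissue for matrix metalloproteinase genes and for fibroblast activation.

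The data covered here are the 7 Fos and Jun genes among the 25719 genes counted in tail tendon fascicles of 28 mice of the C57BL/6 strain (C57Bl6/J background), with 1 RNA-seq library per mouse. The members were fixed by name: Fosl2 (ENSMUSG00000029135, chr5:32292707-32315186), Fosl1 (ENSMUSG00000024912, chr19:5497575-5505974), Fos (ENSMUSG00000021250, chr12:85520658-85524047), Fosb (ENSMUSG00000003545, chr7:19036621-19043976), Jun (ENSMUSG00000052684, chr4:94937271-94940459), Junb (ENSMUSG00000052837, chr8:85701113-85705359) and Jund (ENSMUSG00000071076, chr8:71151599-71153265), all protein coding and on GRCm39. Jun and Jund have a single exon. Fosl2 is also the gene of the transgene. Fosl-2(Tg) mice (Tg) carry a randomly inserted vector with the 4 exons, the introns and shortened UTRs of murine Fosl2 under the MHC class I promoter H2Kb, followed by a self-cleaving peptide and eGFP, and the controls (WT) are nontransgenic mice of the same breeding.

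The early stage comprised 7 WT and 8 Tg mice of 6 to 8 weeks, all male. The established stage comprised 6 WT and 7 Tg mice older than 14 weeks, in each of which 1 mouse (replicate 5) was male and the others female, so that stage and sex cannot be told apart. Over the coding exons and the UTR parts that the vector holds, reads of the inserted and of the endogenous Fosl2 cannot be told apart, whereas the remaining UTR sequence takes endogenous reads alone. The deposited count sums all of these, so it is diluted as a measure of the transgene, and its level per kb is relative to the exon length of the endogenous gene. eGFP was not analysed here. H2Kb is active in most nucleated cells, and which cells of these tendons expressed the transgene was not measured here.

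The libraries held 9645598 to 66894396 reads assigned to genes, and every member was counted in every library. Col1a1 and Col1a2 together took a median of 18.3% of the counts in WT early, 30.9% in Tg early, 12.4% in WT established and 2.37% in Tg established mice. Levels are therefore given as CPM, that is, counts relative to a library's total, scaled with TMM factors, which set the bulk of genes level between libraries, and the scaling without them is given where it changes a result. The tissue was a whole homogenate, and fewer cells of a type cannot be told apart from less RNA per cell. None of the 12 tendon markers was at 0 in all libraries, and their summed level was 105097 to 197282 CPM in WT established mice and 12112 to 87718 CPM in Tg established mice, without overlap.

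Sequences just upstream of the members are shown because 5 of the 6 other genes followed Fosl2 from mouse to mouse over all 28 mice and because the promoter that drives the transgene is not that of Fosl2. The 250 bases before the start of Fosl2 (chr5:32292457-32292706, plus strand, GRCm39) read, 5′ to 3′ and with no capitals since none of the AP-1, cyclic AMP response, CArG (serum response factor), interferon regulatory factor or TATA motifs searched was present:
Fosl2: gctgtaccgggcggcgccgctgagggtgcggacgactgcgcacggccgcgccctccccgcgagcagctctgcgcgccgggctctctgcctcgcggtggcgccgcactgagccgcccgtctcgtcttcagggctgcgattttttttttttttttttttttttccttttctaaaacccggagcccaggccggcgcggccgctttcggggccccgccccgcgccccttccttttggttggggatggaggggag
This stretch was 67.6% G or C. On either strand, the window from 250 bases before to 50 bases after the start held the GC box GGGCGG 3 times, as did 42.6% of 21571 mouse promoters of the same length at least once.

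In 4 members the same window held an element that is known from their regulation. Shown with 15 bases on each side and the element in capitals, these were TGACGT in Fos (chr12:85520583-85520618, plus strand), TGACATCA in Jun (chr4:94940482-94940519, minus strand), the TATA box TATAAA in Junb (chr8:85705357-85705392, minus strand) and the full element TGACGTCA in Jund (chr8:71151370-71151407, plus strand). The fifth line is the interferon regulatory factor motif GAANNGAAA, read here from its other strand, in the promoter of H2-K1 (chr17:34219388-34219426, minus strand), the gene of H2Kb.
Fos: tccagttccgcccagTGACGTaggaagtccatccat
Jun: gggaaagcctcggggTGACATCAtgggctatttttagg
Junb: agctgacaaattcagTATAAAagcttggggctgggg
Jund: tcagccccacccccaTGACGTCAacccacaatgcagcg
H2-K1: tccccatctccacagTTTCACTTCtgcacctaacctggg
The elements began 60, 45, 30, 214 and 90 bases before the start, respectively. Distances are from the annotated start of the canonical transcript, and in H2-K1 a TATAAA lay 35 bases after it. TATAAA also lay 27 bases before the start in Fos and, on the other strand, 132 bases before it in Fosl1. Jund held a further TGACGT on the other strand, 98 bases before its start. Of all 21571 promoter windows, 8.57% held TGACGT on either strand (which includes every TGACGTCA), 3.08% TGACATCA, 13.2% TATAAA, 2.45% TGACGTCA and 7.89% GAANNGAAA. TGACTCA was in none of the 7 members' windows and in 4.7% of all windows. These matches describe the letters of this short window and are no evidence of binding.

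Per kilobase of exon, Jund was the most abundant member and Fosl1 the least in the means of every group. In WT early mice, the mean level was 147 ± 45.2 CPM per kb for Jund (SD, n = 7), 19.7 ± 5.60 for Jun, 12.4 ± 4.25 for Junb, 8.53 ± 2.51 for Fosl2, 7.78 ± 3.98 for Fos, 3.57 ± 3.03 for Fosb and 1.10 ± 0.18 for Fosl1. Jund stood above Jun in all 28 mice. Jun stood above Junb in all 28 mice as well, but with the length of the canonical transcript in place of all exons this order held in 5 of 7 WT early, 5 of 6 WT established and 5 of 7 Tg established mice. Fosl2 and Fos were neighbours whose order was not separated: Fosl2 was higher in 4 of 7 WT early, 4 of 8 Tg early, 5 of 6 WT established and 6 of 7 Tg established mice, and with canonical lengths Fos was higher in 3 of 8 Tg early mice and 0 of 7 WT early mice. The summed level of the 7 genes was 469 ± 142 CPM in WT early, 539 ± 222 in Tg early, 518 ± 53.2 in WT established and 531 ± 140 in Tg established mice (SD, n = 7, 8, 6 and 7).

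**Figure D1:**
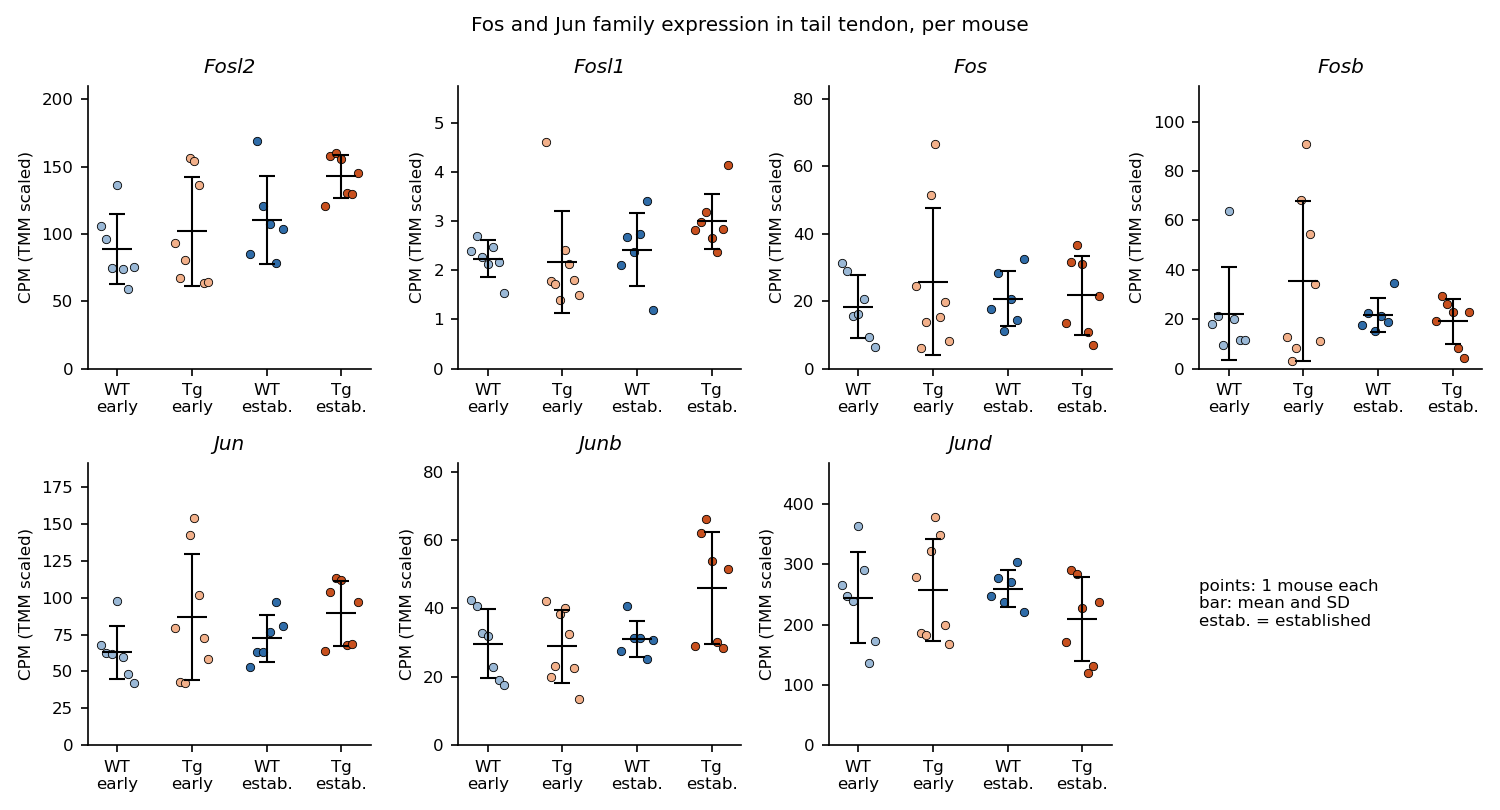
Level of each of the 7 genes in CPM (TMM scaled, vertical axes from 0) in each mouse, by group (WT early, Tg early, WT established, Tg established), with the mean and SD of each group as a bar. Genotypes overlap for every gene at both stages; 4 Tg established mice stand above all WT established mice for Junb.

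Fosl2 is the Fos protein overexpressed by design, so its level was examined first. In WT early mice, Fosl2 had a lowest, median and highest level of 58.8, 75.7 and 136 CPM. In Tg early mice, the corresponding levels were 63.3, 87.1 and 156 CPM. Only 2 of the 8 Tg early mice stood above the highest WT mouse, and 5 stood above the WT median. The log2 fold change was 0.20 ± 0.24 (SE) and did not pass the test (adjusted p = 0.918).

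At the established stage, Fosl2 reached 78.0, 105 and 169 CPM in WT mice (lowest, median, highest) and 121, 145 and 160 CPM in Tg mice. All 7 Tg mice stood above the WT median and 5 of the 6 WT mice stood below the lowest Tg mouse, but WT replicate 2 (169 CPM) was the highest of all. The log2 fold change of 0.38 ± 0.15 (SE, adjusted p = 0.141) did not pass the test with all mice. It did without WT replicate 2, at 0.53 (adjusted p = 0.0406). The coefficient of variation of Fosl2 was 11.1% in Tg established, 29.5% in WT established and WT early and 39.7% in Tg early mice. Hence the summed Fosl2 count did not separate mice labelled Tg from mice labelled WT at either stage.

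Fosl1, the other Fos-related antigen, was barely detected, with 16 to 197 counts per library. Its exons share 1163 bases with Ccdc85b on the opposite strand, and as no strand setting is given, reads of both genes cannot be told apart. Its mean was 2.24 ± 0.37 and 2.18 ± 1.04 CPM in WT and Tg early mice and 2.42 ± 0.74 and 3.00 ± 0.56 CPM in WT and Tg established mice (SD, n = 7, 8, 6 and 7). The log2 fold change was -0.04 ± 0.23 (SE, adjusted p = 0.983) early and 0.30 ± 0.20 (adjusted p = 0.348) at the established stage.

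Fos and Fosb, the classical immediate early members, spread the most between mice of a group. Fos ranged from 6.12 to 66.6 CPM in Tg early mice and from 6.27 to 31.4 CPM in WT early mice. Fosb ranged from 3.23 to 91.0 CPM in Tg early mice, with a coefficient of variation of 91.6%. The log2 fold change of Fosb was 0.68 ± 0.60 (SE, adjusted p = 0.901) early and -0.17 ± 0.35 (adjusted p = 0.782) at the established stage. That of Fos was 0.50 ± 0.48 (adjusted p = 0.909) and 0.08 ± 0.37 (adjusted p = 0.904).

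Among the Jun genes, Junb had the largest difference between genotypes at the established stage. Junb was at 25.1, 31.1 and 40.6 CPM in WT mice (lowest, median, highest). The 7 Tg mice, replicates 1 to 7, were at 29.0, 61.9, 66.3, 53.8, 30.1, 28.3 and 51.6 CPM, so replicates 2, 3, 4 and 7 stood above every WT mouse and the other 3 among them. The log2 fold change was 0.57 ± 0.22 (SE) and did not pass the test (adjusted p = 0.116). With limma voom and quality weights, Junb passed (adjusted p = 0.0368). Its exons share 173 bases with Prdx2 on the opposite strand. The exons of Jund share 877 of their 1667 bases, those of Jun 528 and those of Fosl2 425 with long noncoding genes on the opposite strand. These noncoding genes have no counts of their own in the data.

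Jun, the classical partner of Fos, followed the same division of Tg established mice. Replicates 2, 3, 4 and 7 were at 104, 113, 112 and 96.8 CPM, and replicates 1, 5 and 6 at 64.2, 67.6 and 68.7 CPM, against 53.0 to 96.8 CPM in WT mice. The log2 fold change was 0.31 ± 0.17 (SE, adjusted p = 0.267). Jund, which can restrain proliferation, had the opposite sign, with a mean of 259 ± 30.3 CPM in WT and 209 ± 69.5 CPM in Tg established mice (SD, n = 6 and 7) and a log2 fold change of -0.31 ± 0.20 (SE, adjusted p = 0.335). In the 3 Tg replicates 1, 5 and 6, Jund was at 171, 119 and 131 CPM, below all WT mice. At the early stage, the log2 fold change was 0.47 ± 0.28 for Jun (adjusted p = 0.846), -0.03 ± 0.26 for Junb (adjusted p = 0.986) and 0.07 ± 0.22 for Jund (adjusted p = 0.972).

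Altogether, 0 of the 7 members passed edgeR's test between genotypes at the early stage, where 0.0396% of 15138 genes did, and 0 of 7 had an unadjusted p under 0.05, against 6.06% of all genes. At the established stage, 0 of 7 passed, where 6.51% of 15862 genes did, and 2 of the 7 (Fosl2 and Junb) had an unadjusted p under 0.05, as had 26.6% of all genes. DESeq2 also called 0 of 7 at either stage, and limma voom 0 at the early stage and 1 (Junb) at the established stage. In the interaction of genotype and stage, 0 of 7 members passed with edgeR, DESeq2 or limma voom and 0 of 7 had an unadjusted p under 0.05 in edgeR, where 7.43% of 16082 genes passed. The interaction closest to the threshold was that of Junb, with a log2 difference of 0.59 ± 0.35 (SE, adjusted p = 0.296).

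**Figure D2:**
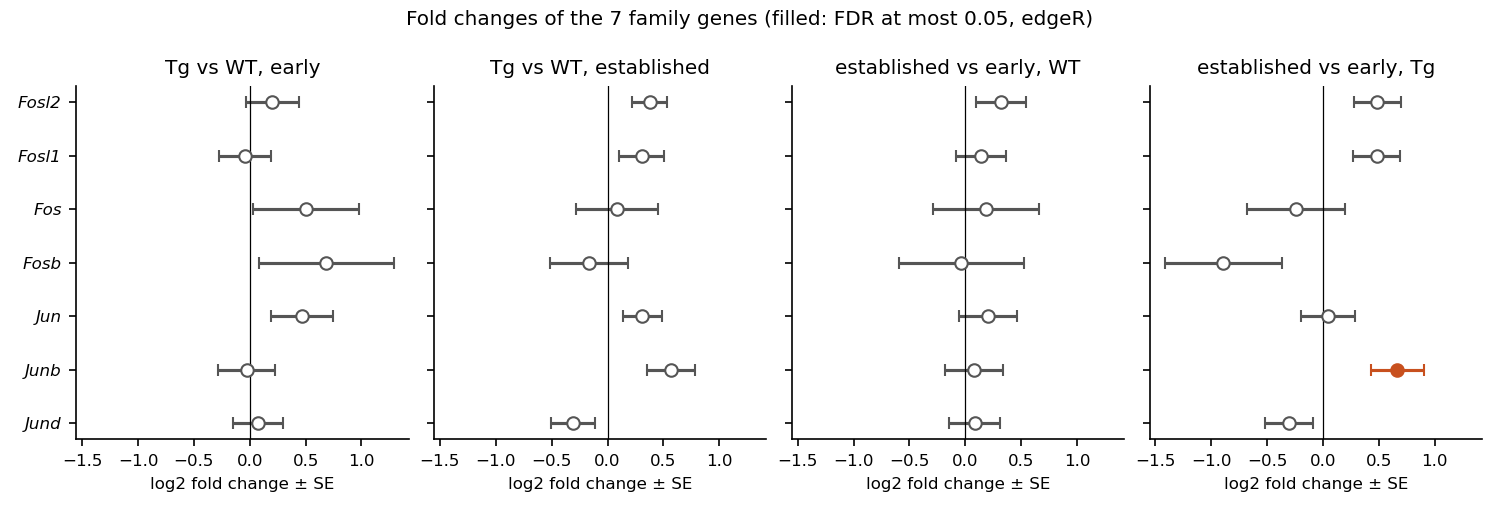
Log2 fold change with SE (horizontal axes) of the 7 genes in 4 comparisons: Tg against WT at the early and at the established stage, and established against early mice in WT and in Tg. Junb in the Tg stage comparison, at 0.66, is the single filled point, that is, with an adjusted p of at most 0.05 in edgeR.

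Between stages, which also differ in sex, Junb rose in Tg mice by a log2 fold change of 0.66 ± 0.24 (SE, adjusted p = 0.0242), where 47.8% of all genes passed. The call was lost when any of Tg early replicates 2, 3 and 8 or Tg established replicates 2, 3 and 4 was left out (adjusted p up to 0.0775) and with the replicate number as a block (0.52, adjusted p = 0.0722). Fosl2 had a log2 fold change of 0.49 ± 0.21 (SE, adjusted p = 0.0535) and Fosl1 of 0.48 ± 0.21 (adjusted p = 0.0654), just outside the threshold. Fosl2 passed without any of Tg early replicates 4, 5 and 6, WT early replicate 6 or WT established replicate 2, with adjusted p between 0.0251 and 0.0486, and Fosl1 without Tg early replicate 1 (adjusted p = 0.00182) or WT established replicate 6 (0.0467). In WT mice, 0 of 7 members passed between stages with edgeR, DESeq2 or limma voom and 0 of 7 had an unadjusted p under 0.05 in edgeR, where 5.81% of genes passed, and Fosl2 had a log2 fold change of 0.32 ± 0.22 (SE, adjusted p = 0.411).

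With library totals in place of TMM factors, the median gene itself moved by 0.33 (log2) between genotypes at the established stage, 47.6% of all genes passed, and 95.9% of these calls were higher in Tg mice against 48.3% with TMM. Under this shift Fosl2 (0.70), Fosl1 (0.63), Jun (0.62) and Junb (0.88) passed, that is, 4 of 7 members. Relative to the median gene, these 4 stood at 0.37, 0.30, 0.29 and 0.55, and Fos, Fosb and Jund at 0.06, -0.18 and -0.32. All 7 thus had the sign they had with TMM.

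The composition of each family does not depend on that scaling and was therefore compared directly. For each mouse, the level per kb of a gene was divided by the sum over its family. Fosl2 made up 42.2 ± 8.12% of the Fos family in WT early, 41.2 ± 12.5% in Tg early, 44.5 ± 8.37% in WT established and 52.5 ± 11.1% in Tg established mice (SD, n = 7, 8, 6 and 7). The difference was -1.09 percentage points early (exact permutation test, two-sided, p = 0.846) and 8.05 percentage points at the established stage (exact permutation test, two-sided, p = 0.175). The 3 highest Fosl2 shares in Tg established mice were 71.2, 63.7 and 53.3% in replicates 6, 5 and 1, the mice in which Fos and Junb were lowest.

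Within the Jun family, the established genotypes differed. Jun family shares were compared after the values had been seen, and the 3 shares of a mouse add up to 100%, so they are not independent of each other. Junb made up 6.53, 8.40, 7.51, 6.57, 4.72 and 7.61% in WT replicates 1 to 6. In Tg replicates 1 to 7, it made up 9.02, 11.2, 11.9, 11.6, 12.0, 10.6 and 11.2%. The groups did not overlap: every Tg mouse stood above every WT mouse, including the 3 whose Junb level in CPM was within the WT range. In these 3 mice, replicates 1, 5 and 6, Jund was at 171, 119 and 131 CPM, below all WT mice. Jund is the largest part of the sum, so a lower Jund level also raises the Junb share. How often shares of other genes separate these groups was not examined. The mean Junb share was 6.89 ± 1.28% in WT and 11.1 ± 1.03% in Tg mice (SD, n = 6 and 7), a difference of 4.18 percentage points (exact permutation test, two-sided, p = 0.00117, the smallest that 1716 groupings allow, and 0.00932 adjusted over 16 comparisons of shares).

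Jund made up 77.5 to 84.1% of the Jun family in WT and 67.8 to 76.1% in Tg established mice, again without overlap. The means of 81.3 ± 2.14% and 72.2 ± 2.90% differed by -9.07 percentage points (exact permutation test, two-sided, p = 0.00117, adjusted p = 0.00932). Jun made up 11.9 ± 2.15% in WT and 16.7 ± 2.39% in Tg mice, 4.88 percentage points more (exact permutation test, two-sided, p = 0.0035, adjusted p = 0.0186), and 5 of 7 Tg mice stood above the highest WT mouse. Without the 2 males, the differences were 3.59 points for Junb, -8.26 for Jund and 4.66 for Jun (exact permutation p = 0.00433, 0.00433 and 0.0130). Without any single library, per CPM and with canonical transcript lengths, the exact permutation p also stayed under 0.05. The p-values of these alternatives are not adjusted. At the early stage, the shares of Junb, Jund and Jun differed by -0.80, -1.57 and 2.37 points (exact permutation p = 0.325, 0.274 and 0.0752). The early Jun difference fell under p = 0.05 without Tg early replicate 2 or 3 or WT early replicate 6 (2.87, 2.88 and 2.91 points, exact permutation p = 0.0344, 0.0326 and 0.034).

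**Figure D3:**
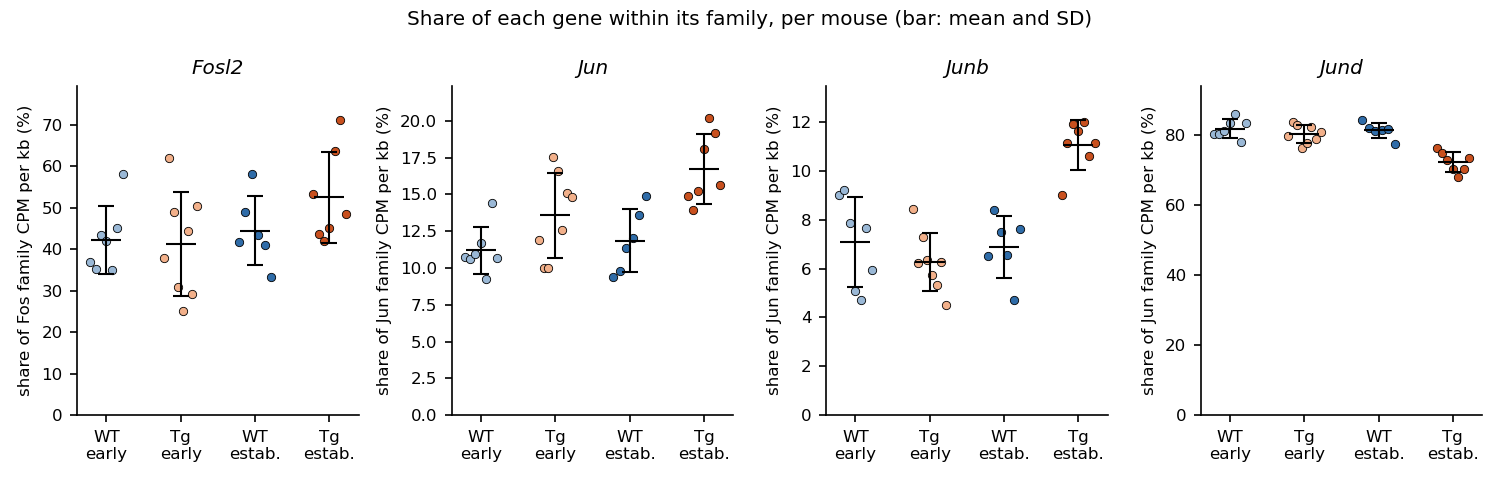
Share of Fosl2 in the summed Fos family, and of Jun, Junb and Jund in the summed Jun family, in percent of CPM per kb (vertical axes from 0), for each mouse by group, with the mean and SD as a bar. In Tg established mice, Junb lies at 9.02% or more and Jund at 76.1% or less, outside the WT established ranges of 4.72 to 8.40% and 77.5 to 84.1%.

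The genotype effect on the Junb share itself differed between stages by 4.98 percentage points (exact permutation test within stages, p = 0.000684; 0.00478 adjusted over 7 shares), and that on the Jund share by -7.50 points (exact permutation p = 0.0190, adjusted p = 0.0667). Summed over the families, the log2 ratio of Fos to Jun genes was -3.02 ± 0.40 in WT and -2.64 ± 0.12 in Tg established mice (SD, n = 6 and 7, exact permutation p = 0.0338, adjusted p = 0.135). Of the 12 tendon markers, 5 fell and 1 rose in Tg established mice, where 6.51% of all genes passed (DESeq2 and limma voom called 8 each). Each of these edgeR calls was lost in 6 to 11 of the 13 fits with 1 library left out. The summed level was 757 to 1292 CPM in WT and 948 to 1662 CPM in Tg established mice for 12 macrophage markers (1 rose and 0 fell in edgeR, while DESeq2 called 3 and limma voom 4). It was 76.9 to 21671 and 53.7 to 6874 CPM for 12 skeletal muscle markers (0 passed in edgeR, DESeq2 or limma voom, 2 with an unadjusted p under 0.05). It was 8.94 to 20.1 and 10.3 to 127 CPM for 7 erythroid markers (of 4 tested in edgeR 0 passed and 3 had an unadjusted p under 0.05; limma voom called 0 and DESeq2 6 of 7). T cell markers summed to at most 2.09 CPM and neutrophil markers to at most 6.09 CPM in any mouse. The part of these cell types in the shares was not tested.

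Next, the other members were compared with Fosl2 from mouse to mouse, after removal of each group's mean, in 28 mice. Junb followed Fosl2 most closely, with Pearson's r = 0.73 (permutation p = 1e-05, the smallest 100000 resamples can give, adjusted p = 6e-05) and Spearman's rho = 0.74. Jund had r = 0.70 (permutation p = 9e-05, adjusted p = 0.00027, rho = 0.68), Jun r = 0.69 (permutation p = 0.00091, adjusted p = 0.00131, rho = 0.67), Fosb r = 0.67 (permutation p = 0.00072, adjusted p = 0.00131, rho = 0.61) and Fos r = 0.64 (permutation p = 0.00109, adjusted p = 0.00131, rho = 0.63). Only Fosl1, at the lowest counts, did not, with r = 0.11 (permutation p = 0.662, rho = 0.32). Thus 5 of the 6 members were related to Fosl2 in the values pooled over the 4 groups. In a comparison added after the data had been seen, the 13 WT mice alone gave r = 0.71 for Junb (permutation p = 0.00766, adjusted p = 0.0460, rho = 0.73), which passed. The other values in WT mice were 0.61 for Fosb, 0.55 for Jund, 0.45 for Fos, 0.38 for Jun and 0.06 for Fosl1 (adjusted p = 0.0856, 0.123, 0.211, 0.274 and 0.861), and 0 of these 5 passed. The difference in r between genotypes was not tested.

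Without the 2 mice farthest from the median of Fosl2 (Tg early replicates 4 and 5), r was 0.69 for Junb, 0.64 for Jund, 0.53 for Fosb, 0.52 for Jun and 0.47 for Fos. The count of 5 stood when any single library was left out, which leaves the 2 sets of Tg mice described below in place. None of the 7 genes was related to the library total, the TMM factor, the collagen share or the muscle score in the same way (28 relations, lowest adjusted p = 0.675). With the group means left in, r was 0.79 for Junb, 0.70 for Jun, 0.55 for Fos, 0.49 for Fosb, 0.40 for Jund and 0.33 for Fosl1.

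**Figure D4:**
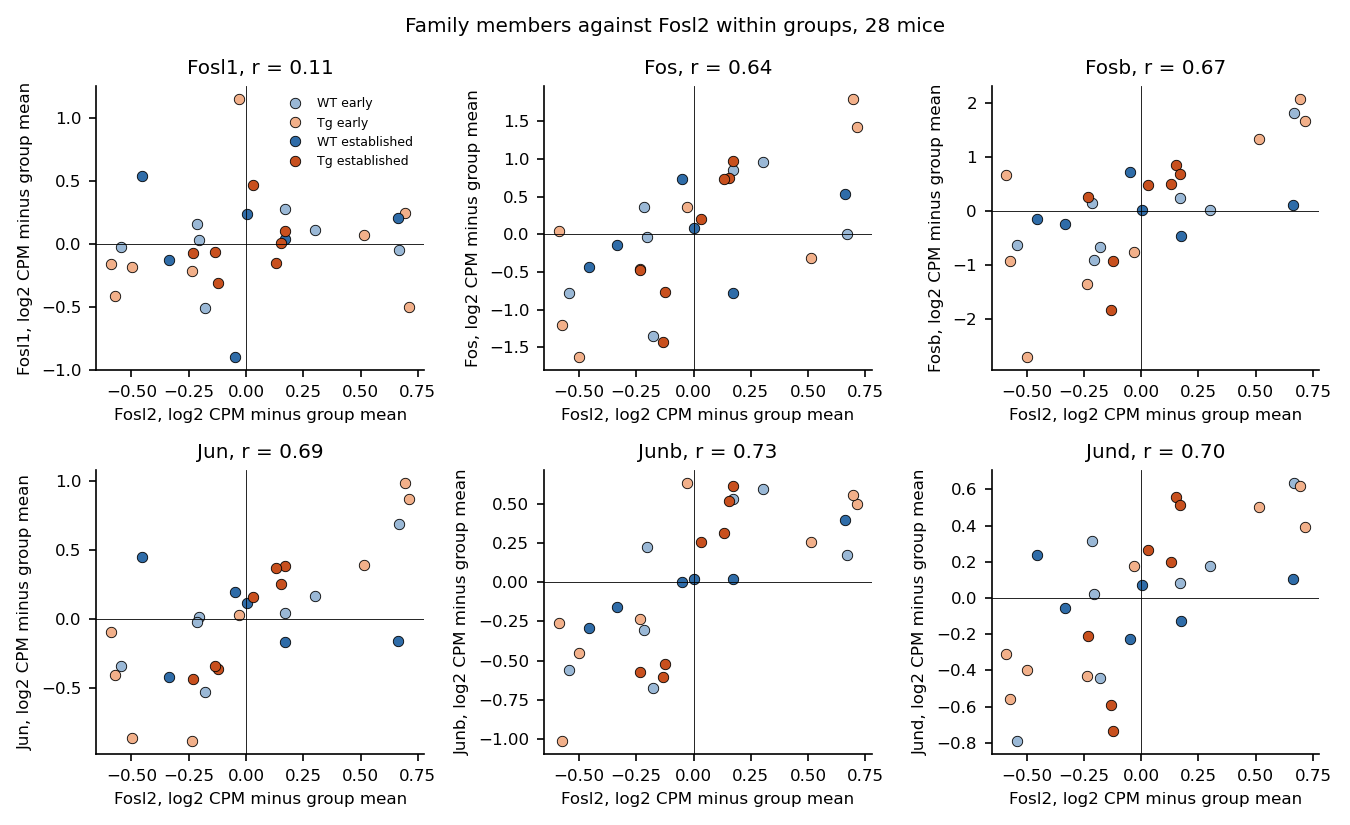
Log2 CPM of each of the 6 other members (vertical axes) against that of Fosl2 (horizontal axes), each as the difference from its group mean, in 28 mice coloured by group. For Junb (r = 0.73) the points rise from lower left to upper right; for Fosl1 (r = 0.11) they do not.

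In both Tg groups, the mice lay in 2 sets, so an r within them carries the step between these sets. In Tg early mice, replicates 4, 5 and 6 were at 156, 154 and 136 CPM of Fosl2 and the other 5 at 63.3 to 93.3 CPM. In Tg established mice, replicates 2, 3, 4 and 7 were at 145 to 160 CPM and replicates 1, 5 and 6 at 121 to 131 CPM, the same sets as for Junb, Jun, Jund and Fos. Across these sets in Tg early mice, r with Fosl2 was 0.94 for Jund, 0.86 for Jun, 0.81 for Junb, 0.79 for Fos and 0.77 for Fosb (exact permutation p = 0.00231, 0.00995, 0.0211, 0.0247 and 0.0365, n = 8). In Tg established mice it was 0.98 for Jun, 0.97 for Junb, 0.88 for Fos, 0.84 for Jund and 0.64 for Fosb (exact permutation p = 0.00119, 0.000992, 0.0167, 0.0308 and 0.128, n = 7). For Fosl1, r was 0.14 and 0.32. In WT early mice, r with Fosl2 was 0.85 for Jun (exact permutation p = 0.0212), 0.84 for Fosb (exact p = 0.0230), 0.80 for Jund (exact p = 0.0302), 0.67 for Junb (exact p = 0.104) and 0.51 for Fos (exact p = 0.239; n = 7). In WT established mice, r was 0.98 for Junb (exact permutation p = 0.00556, n = 6) but -0.34 for Jun (exact p = 0.517), -0.09 for Jund, 0.14 for Fosb and 0.38 for Fos. The difference in r between the groups was not tested. With 6 to 8 mice such values are imprecise, and they are not adjusted for the number compared.

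Among 11415 genes with a mean of at least 5 CPM, the 10 most like Fosl2 by rho over the 28 centred values were Socs3 (0.83), which encodes an inhibitor of cytokine receptor signalling, Sdc4 (0.81), a syndecan of cell adhesions, Prkar1a (0.81), a regulatory subunit of protein kinase A, Tpm3 (0.79), a tropomyosin, Rab31 (0.78), Ssrp1 (0.78), Fbxw11 (0.78), Stat3 (0.77), the transcription factor that Socs3 feeds back on, Abhd2 (0.77) and Atp2a2 (0.77), a calcium pump. Over all of these genes, the median rho was -0.02, with 90% between -0.43 and 0.49. Junb took rank 18, Jund 60, Jun 68, Fos 149 and Fosb 201 in this order, whereas Fosl1 lay under the level required. The mean level of Stat3 was 118, 122, 140 and 163 CPM in WT early, Tg early, WT established and Tg established mice.

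Fosl2 also moved with the mean log2 level of 23 other immediate early genes (r = 0.81, permutation p = 3e-05, adjusted over 19 lists p = 0.00057, rho = 0.78; 0.73 without the 2 farthest mice). For AP-1 target genes, r was 0.46 (permutation p = 0.00472, adjusted p = 0.0448, rho = 0.43), but 0.32 without these 2 mice, on which this relation rests. For serum response factor and its cofactors r was 0.54 (permutation p = 0.00859, adjusted p = 0.0544), and for skeletal muscle and macrophage markers -0.20 and -0.03 (permutation p = 0.282 and 0.866).

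Counts of genes that passed are those of edgeR unless another tool is named. Immediate early genes outside the family were higher in Tg established mice for 2 of the 21 tested, with 0 lower, where 6.51% of all genes passed. DESeq2 called 4 of 23 and limma voom 6 of 21. Klf6, a zinc finger factor induced by injury, rose from 200 ± 22.2 to 317 ± 64.2 CPM (SD, n = 6 and 7), a log2 fold change of 0.67 ± 0.13 (SE, adjusted p = 0.0174), and its lowest Tg mouse (238 CPM) stood above the highest WT mouse (220 CPM). Socs3 rose by a log2 fold change of 0.67 ± 0.18 (SE, adjusted p = 0.0415), a call lost when any mouse except Tg replicates 1, 5 and 6 was left out (adjusted p up to 0.0878), without the 2 males, with no filter on low counts and with all 28 libraries in 1 fit. The median of the list was 0.42 against 0.01 for all genes. Egr1 had a log2 fold change of 0.61 ± 0.35 (SE, adjusted p = 0.269). The effect on Klf6 differed between stages (0.87 ± 0.21, adjusted p = 0.0140). Between stages in Tg mice, where 47.8% of all genes passed, 6 of 21 rose and 1 fell, among them Klf6 (0.97), Ier5 (0.74) and Klf2 (0.67), while Ier3 was lower by a log2 fold change of -0.83. Egr1 (1.01) also rose there. Its call was lost when any of 18 of the 28 mice was left out (adjusted p up to 0.179), with RLE size factors, with no filter on low counts and with the replicate block.

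Other leucine zipper genes that can pair with Fos or Jun proteins changed in both directions. Maff, a small Maf protein without a transactivation domain, was at 24.1, 27.0 and 27.95 CPM in WT and 29.7, 41.4 and 58.2 CPM in Tg established mice (lowest, median, highest). The ranges did not overlap, and the log2 fold change was 0.71 ± 0.14 (SE, adjusted p = 0.0174). Jdp2, a Jun dimerization partner that represses AP-1, was at 36.2 to 41.5 CPM in WT and 17.7 to 34.0 CPM in Tg established mice, also without overlap, and its log2 fold change was -0.53 ± 0.14 (SE, adjusted p = 0.0371). The share of all genes without overlap between these groups is not given here, so separate ranges of single genes, here and elsewhere, have no background. The Jdp2 call was lost when any of the 6 WT mice or Tg replicate 1 or 2 was left out (adjusted p up to 0.0727), without the 2 males and with library totals. These were the 2 of 13 tested partners that passed at the established stage, where 6.51% of all genes did. DESeq2 called 3 of 15 there and limma voom 4 of 13. In edgeR, 0 of 12 passed at the early stage, where 0 had an unadjusted p under 0.05 and DESeq2 and limma voom called 0.

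The genotype effect differed between stages for 3 of 13 partners, where 7.43% of all genes passed. It was greater at the established stage for Batf3 (2.53 ± 0.59, adjusted p = 0.0124), a partner of Jun proteins in immune cells, which had 1 to 46 counts per library. It was lower for Jdp2 (-0.71 ± 0.18, adjusted p = 0.0202) and for Atf4 (-0.51 ± 0.14, adjusted p = 0.0298), a factor of the integrated stress response. The call for Atf4 was lost without WT early replicate 2, Tg early replicate 2 or 5, WT established replicate 2 or Tg established replicate 1 or 2 (adjusted p up to 0.0579). Between stages in Tg mice, 4 of the 13 rose and 2 fell, near the 47.8% of all genes that passed. Maff (1.04) and Batf3 (1.89) were higher, and Atf4 (-0.74) and Jdp2 (-0.66) lower.

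**Figure D5:**
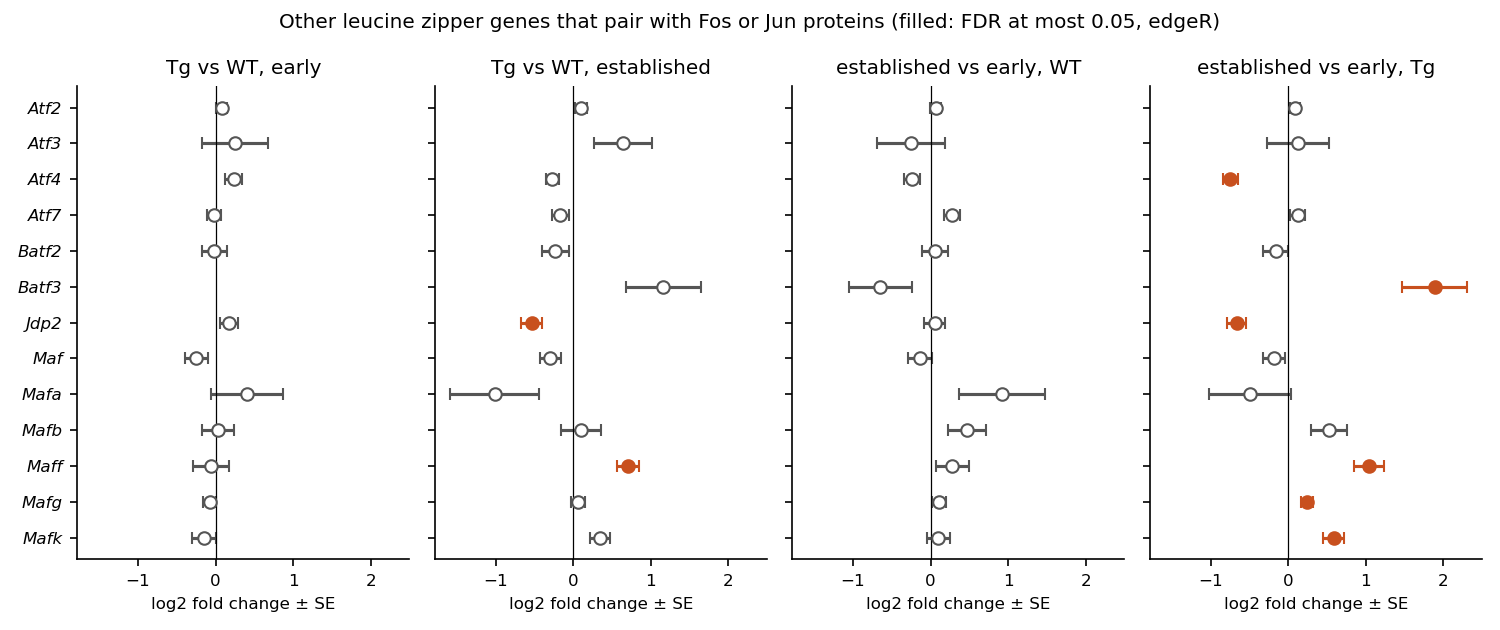
Log2 fold change with SE (horizontal axes) of 13 other leucine zipper genes in the same 4 comparisons as for the members. Filled points have an adjusted p of at most 0.05 in edgeR: Maff (0.71) and Jdp2 (-0.53) between genotypes at the established stage, and 6 genes between stages in Tg mice.

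Upstream of AP-1, 9 of 19 MAP kinase genes fell and 2 rose in Tg mice between stages, where 47.8% of all genes passed. The count of 11 is not far from that background, and the median was -0.22 against 0.03 for all genes. Map2k6, which activates p38, was at 7.50 to 11.4 CPM in WT and 2.88 to 6.76 CPM in Tg established mice, without overlap. It was the only 1 of the 19 to pass between established genotypes in edgeR, where 6.51% of all genes did. DESeq2 called 4 of 20 and limma voom 5 of 19. Map2k6 had a log2 fold change of -0.90 ± 0.17 (SE, adjusted p = 0.0152). Its effect differed between stages (-1.14 ± 0.19, adjusted p = 0.00198), as did those of Map3k7, the kinase TAK1 (-0.48 ± 0.13, adjusted p = 0.0245), and Map3k1 (0.55 ± 0.17, adjusted p = 0.0497), which phosphorylates JNK kinases. The call for Map3k7 was lost without Tg established replicate 1 (adjusted p = 0.0522), and that for Map3k1 when any of 15 of the 28 mice was left out (adjusted p up to 0.0904) and with no filter on low counts. Between stages in Tg mice, Map2k6 (-1.30), Map3k7 (-0.59) and the JNK kinase Map2k4 (-0.56) were lower and Map3k5 (0.66) higher. In WT mice, 1 of 19 passed between stages, where 5.81% of all genes did: Rps6ka1 (-0.74 ± 0.18, adjusted p = 0.0138).

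Of 7 genes of serum response factor and its cofactors, 0 passed between established genotypes, where 6.51% of all genes did. Among them, 2 had an unadjusted p under 0.05, as had 26.6% of all genes, while DESeq2 and limma voom called 1 each. Elk3, a ternary complex factor, was lower in Tg mice between stages (-0.69 ± 0.14, adjusted p = 0.000232). Of 8 MAP kinase phosphatases, 0 passed between established genotypes and 4 had an unadjusted p under 0.05, against 26.6% of all genes, while DESeq2 and limma voom called 2 each. Dusp7 (-0.65) and Dusp8 (-0.79) were lower in Tg mice between stages. Dusp8 did not pass without Tg early replicate 5 or 6 or Tg established replicate 1 or 5 (adjusted p up to 0.0837), without the 2 established males or with the replicate block. With library totals in place of TMM, which moved the median gene by 0.76 between stages in Tg mice and by 0.53 in the interaction, the lower calls between stages in Tg mice for Atf4, Jdp2, Ier3, Map3k7, Map2k4, Elk3, Dusp7 and Dusp8 did not pass. Neither did those for Fbxw7 between established genotypes or for Jdp2, Atf4 and Map3k7 in the interaction. Of 7 genes for turnover of Jun proteins, 2 passed between established genotypes, where 6.51% of all genes did (DESeq2 called 3 and limma voom 2). Trib1, a COP1 adaptor, rose in Tg established mice (0.86 ± 0.19, adjusted p = 0.0232) and Fbxw7, a ubiquitin ligase receptor for Jun, fell (-0.38 ± 0.09, adjusted p = 0.0303). The call for Trib1 was lost without WT established replicate 1 or 4, and that for Fbxw7 without WT established replicate 1, 2 or 5 or Tg established replicate 1 or 2 (adjusted p up to 0.0559 and 0.0649), without the 2 males and with the replicate block.

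Downstream, 1 of 15 AP-1 target genes passed between genotypes at the established stage in edgeR, near the 6.51% of all genes that passed. Limma voom also called 1 of 15, and DESeq2 called 5 of 20. Mmp13, a collagenase, was at 1022 CPM in Tg replicate 6 and 403 CPM in Tg replicate 7 but at 0.77 to 2.83 CPM in the other 5 Tg and 0.30 to 3.42 CPM in the 6 WT mice. Its log2 fold change of 7.34 ± 1.99 (SE, adjusted p = 0.0444) rests on these 2 mice, of which replicate 6 had the lowest Fos and Junb levels of the group. The call was lost when any mouse except Tg replicates 3, 4 and 5 was left out (adjusted p up to 0.0885), without the 2 males, with sex as a covariate, with no filter on low counts, with the replicate block and with limma voom. At the early stage, Mmp13 was at 98.3, 192, 99.6, 178 and 250 CPM in Tg replicates 2 to 6 and at 0.28 to 2.96 CPM in the other 3 Tg mice, while 6 of the 7 WT mice lay at 0.31 to 0.67 CPM and WT replicate 4, the WT mouse highest in Fosl2, at 66.9 CPM (log2 fold change 3.39 ± 1.42, SE, adjusted p = 0.775). Fosl2 was at 67.4, 80.9, 156, 154 and 136 CPM in Tg early replicates 2 to 6 and at 93.3, 63.3 and 64.0 CPM in replicates 1, 7 and 8. The relation of Mmp13 to Fosl2 was not tested. In WT mice, Hmox1 (-1.62 ± 0.44, adjusted p = 0.0275) and Gja1, connexin 43 (-0.86 ± 0.17, adjusted p = 0.004), were lower at the established stage. Hmox1 did not pass without WT early replicate 4 or 6 or WT established replicate 1, 3, 4 or 5 (adjusted p up to 0.103), with limma voom or with the replicate block. In Tg mice Gja1 was lower (-1.42) and Spp1, osteopontin, higher (1.16), the latter not without Tg established replicate 6 (adjusted p = 0.0853).

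H2-K1, the endogenous gene of the promoter that drives the transgene, was at a mean of 59.4, 54.4, 47.2 and 47.9 CPM in WT early, Tg early, WT established and Tg established mice. Its log2 fold change between genotypes was -0.13 ± 0.10 (SE, adjusted p = 0.885) early and 0.03 ± 0.08 (adjusted p = 0.855) at the established stage. In WT mice it fell between stages (-0.33 ± 0.10, adjusted p = 0.0403), a call lost without WT early replicate 1, 3 or 5 or WT established replicate 1, 3, 4 or 5 (adjusted p up to 0.102), with no filter on low counts, with library totals and with the replicate block. Of 9 genes of the MHC class I pathway, 2 rose in Tg established mice, where 6.51% of all genes passed (DESeq2 called 3 and limma voom 2). These were Psmb8, an immunoproteasome subunit (0.63 ± 0.15, adjusted p = 0.0277), and Tap2, of the peptide transporter (0.37 ± 0.10, adjusted p = 0.0379). The call for Psmb8 was lost without WT established replicate 1, 2 or 4 (adjusted p up to 0.0644), and that for Tap2 when any mouse except WT replicate 4 and Tg replicates 5, 6 and 7 was left out (adjusted p up to 0.0833) and with no filter on low counts. Both were lost with the replicate block and with all 28 libraries in 1 fit. The effect differed between stages for 4 of the 9, where 7.43% of all genes passed (1.34 for Psmb8, 1.56 for Psmb9, 1.19 for Tap1 and 1.05 for Tap2), of which Tap1 was lost when any of 6 and Tap2 when any of 21 of the 28 mice was left out and both without the 2 males, each with a negative log2 fold change at the early stage that did not pass (-0.68 to -0.88). These genes respond to interferon and are expressed more in immune than in stromal cells; macrophage markers had a negative log2 fold change early in 12 of 12 and a positive one at the established stage in 11 of 12, and their part in the result was not tested.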

How the data were processed

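RNA of tail tendon fascicles was rRNA-depleted and sequenced by the authors, who mapped them by STAR (build GRCm39, GENCODE M26 annotation) and summed them over genes with featureCounts; tool versions and the strand setting are not given in the sources used here. The deposited values are raw counts, with no blank or total rows. They passed through edgeR 4.0.16 (R 4.3.3): TMM factors, a filter on low counts (filterByExpr, minimum count 10 and total 15), quasi-likelihood tests, and Benjamini-Hochberg adjustment over all genes tested, with calls at an adjusted p of at most 0.05. Genotypes were compared within each stage in the libraries of that stage; stage contrasts and the interaction came from a fit of the 4 groups in all 28 libraries. Of 25719 genes, 25505 could be named. Levels are CPM with TMM factors over the 28 libraries, and correlations use log2 CPM with a prior count of 2. Depth was 9645598 to 66894396 counts; no libraries of a group agreed within sampling noise (smallest chi-square per degree of freedom 7.02), and the labels name no litter or day, so p-values measure the spread between these mice.

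Shares and correlations were tested with exact or 100000-fold permutation of mice (scipy 1.17.1). Gene coordinates, promoter windows and exon lengths come from GRCm39 and a later GENCODE release than the M26 of the counts. The exon lengths can therefore differ from the exons that were counted. Members, gene lists and alternatives were chosen with earlier results of these data known. Beside the 7 members, H2-K1 and Egr1, the text names at most 4 genes per list and comparison, smallest adjusted p first, and the 10 genes most like Fosl2. On simulated counts with 200 changed genes, 97.9% of the 192 that were tested were recovered early (15032 genes tested in all). At the established stage 91.8% of 195 were recovered (15771), and for the interaction 89.3% of 196 (15919). Unchanged genes made up 3.59, 4.28 and 6.42% of the respective calls. The fold change given to the changed genes is not stated here, so these percentages do not carry over to the members. Replicate numbers are shared between genotypes. Deviations of same-numbered mice correlated by 0.129 to 0.363 in the 7 early pairs and by -0.223 to 0.688 in the established pairs. The same-numbered mouse was the best match for no early number, and for established numbers 1 and 4 alone. Shared numbers were therefore not taken as pairs. The replicate block is given as an alternative, and calls that it ended are named. Alternatives were DESeq2 1.42.0, limma 3.58.1 voom with quality weights, other size factors and filters, a replicate block, a muscle covariate, sex, and each library left out; library totals, canonical transcript lengths, the Jun family shares and the correlations in WT mice alone were added after the data had been seen.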

Additional observations from a re-analysis of the deposited data

Results flagged for a closer look

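Fosl1 in Tg early replicate 1 (4.62 CPM) lay far from the other 7 mice of its group, of which the next was at 2.42 CPM. Fosb in WT early replicate 4 (63.9 CPM) lay far from the other 6 mice, of which the next was at 21.3 CPM; the same mouse was the highest of its group in Fosl2 (136 CPM) and Jund (364 CPM). By this rule chance marks about 1 in 20 groups. The genotype effect on the Junb share of the Jun family differed between the stages by 4.98 percentage points (-0.80 early, 4.18 established; exact permutation test within stages, p = 0.000684), and stage and sex cannot be told apart in this difference.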

How the results depend on the processing

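The number of members that passed stayed at 0 at the early stage and for WT mice between stages under every alternative run. At the established stage it was 1 with limma voom and 4 with library totals, and 0 to 1 with 1 library left out. For the interaction it was 2 with library totals. For Tg mice between stages it was 3 with limma voom, 4 with library totals, 0 with the replicate block, and 0 to 2 with 1 library left out; the block changed no other call of a member. Among the genes named from the lists, the block ended the calls for Mmp13, Fbxw7, Psmb8 and Tap2 (established), Hmox1 and H2-K1 (WT between stages) and Dusp8 and Egr1 (Tg between stages). The cause of these moves was not tested. The Fosl2 share differed by -4.06 to 1.56 points early with 1 library left out. The 5 members that moved with Fosl2 numbered 5 under all 34 alternatives but 1 (Junb) in WT mice alone.

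Members that did not pass changed sign as follows; library totals move all genes alike, and relative to the median gene only Fosb in WT between stages (0.04) kept the changed sign. Early: Junb 0.11 with the replicate block and 0.12 with a muscle covariate, Jund -0.0097 with voom and -0.064 with library totals. Established: Fos -0.043 with the block, Fosb 0.074 with voom and 0.15 with totals, Jund 0.012 with totals. Interaction: Fos 0.13 with voom and 0.039 with totals, Jun 0.14 and 0.30, Jund 0.076 with totals. WT between stages: Fosb 0.090 with voom, 0.28 with totals and 0.16 with the block. Tg between stages: Fos 0.18 with voom and 0.47 with totals, Jund 0.42 with totals. With 1 library left out, sign changes lay within -0.44 to 0.11 (Fos, Tg stages), -0.0897 to 0.25 (Fos, established), -0.21 to 0.48 (Fosb, WT stages), -0.31 to 0.0091 (Fosb, established), -0.28 to 0.031 (Fosl1, early), -0.083 to 0.19 (Jun, Tg stages), -0.30 to 0.018 (Jun, interaction), -0.0205 to 0.19 (Junb, WT stages), -0.13 to 0.10 (Junb, early), -0.0199 to 0.18 (Jund, WT stages) and -0.034 to 0.20 (Jund, early).

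Over all genes, calls numbered 6 early, 1032 established, 1195 for the interaction, 935 for WT and 7685 for Tg between stages. They became 25, 2179 and 1561 (early, established, WT) with DESeq2, 10, 1984, 1951 and 2145 (early, established, interaction, WT) with voom, 11 with the block (early), 1663 with all libraries in 1 fit and 1686 with the muscle covariate (established), 4 with that covariate (early), 560 and 725 without the 2 males (established, interaction), and 7544, 8091, 2374 and 12836 with library totals (established, interaction, WT, Tg; 95.9, 96.9, 91.1 and 95.2% higher, against 48.3, 46.1, 40.1 and 54.0%). With 1 library left out they were 4 to 12, 361 to 1166, 702 to 1876, 419 to 1391 and 6886 to 7813.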

Other observations

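Other pairs of members were compared in the same way, as differences from the group means over 28 mice that share each library's depth and scaling. The closest pairs were Fosb with Jun (r = 0.85), Fos with Junb (r = 0.84) and Jun with Jund (r = 0.81), all above any pair that includes Fosl2, of which Junb was the closest at 0.73. Fosl1 stood apart from Fos (r = 0.20) and Fosb (r = 0.02), with r = 0.43 to Junb and 0.41 to Jund.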
